A study of Mus musculus with 6 samples.

Results

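The genes described here encode the subunits, the inhibitors, a kinase and a feedback inhibitor of the transcription factor NF-kB. They were chosen by symbol: Nfkb1, Nfkb2, Rel, Rela, Relb, Nfkbia, Nfkbib, Nfkbie, Ikbkb and Tnfaip3. Of these 10 genes, 9 had a probe set annotated to them, 12 probe sets in all of the 12422 on the array that are not controls. Nfkb1 was not analysed here, since no probe set was annotated to its symbol. Messenger RNA of whole splenic B cells from adult mice had been hybridised to 6 Affymetrix MG_U74Av2 arrays, 2 per group. The 3 groups compared were wild type CBA mice, Xid mice, which are the CBA/N strain with the R28C substitution in Btk, and Btk KO mice, a knockout first made on SW129 and crossed back to CBA for 9 generations. Xid is thus a strain of its own with a mutant Btk, and in both lines the Btk defect cannot be told apart from other differences of the strain. No treatment or stimulation is named in the labels, and the sources used here do not give how the B cells were isolated. The first 3 arrays, 1 per group, form run 1, and the other 3, made with new RNA from new mice, form run 2. Whether an RNA came from a single mouse or from a pool is not given either.

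NF-kB factors are dimers of the Rel family proteins RelA, RelB, c-Rel, p50 (from Nfkb1) and p52 (from Nfkb2). In resting cells IkB proteins hold them in the cytoplasm, and the IkB kinase complex releases them by marking IkB for degradation. In B cells Btk stands between the antigen receptor and this kinase, so that the receptor reaches NF-kB through Btk, phospholipase C and protein kinase C beta. Several of the genes are themselves transcribed in response to NF-kB, among them Nfkbia and Tnfaip3, which then turn the signal off. Messenger RNA levels do not show where the proteins are or whether they are active.

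The promoters of 4 of these genes are shown because they carry letters of the kind NF-kB binds, and these genes are known to respond to the factor they encode or restrain. The windows are the 250 bases before an annotated gene start, from RefSeq on GRCm38.p6. For Nfkb2 the window is chr19:46304487-46304736 on the plus strand, and the windows on the minus strand are chr11:23770970-23771219 for Rel, chr12:55492648-55492897 for Nfkbia and chr10:19015411-19015660 for Tnfaip3. Each sequence reads 5′ to 3′ on the gene's strand, and capitals mark matches, on either strand, to a kappaB-like pattern. This pattern is GGG, any 2 bases, TT, any base and CC, 10 bases in all.
Nfkb2: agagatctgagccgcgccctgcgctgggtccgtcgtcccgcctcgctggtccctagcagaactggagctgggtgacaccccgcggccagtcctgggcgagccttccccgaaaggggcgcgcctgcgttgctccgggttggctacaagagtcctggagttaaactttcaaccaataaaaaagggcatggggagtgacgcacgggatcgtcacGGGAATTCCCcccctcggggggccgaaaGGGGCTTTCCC
Rel: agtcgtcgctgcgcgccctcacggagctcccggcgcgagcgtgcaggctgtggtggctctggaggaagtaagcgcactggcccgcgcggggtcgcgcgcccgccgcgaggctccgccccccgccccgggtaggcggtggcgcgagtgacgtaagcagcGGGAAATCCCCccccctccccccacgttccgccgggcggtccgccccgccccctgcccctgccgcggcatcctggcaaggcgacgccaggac
Nfkbia: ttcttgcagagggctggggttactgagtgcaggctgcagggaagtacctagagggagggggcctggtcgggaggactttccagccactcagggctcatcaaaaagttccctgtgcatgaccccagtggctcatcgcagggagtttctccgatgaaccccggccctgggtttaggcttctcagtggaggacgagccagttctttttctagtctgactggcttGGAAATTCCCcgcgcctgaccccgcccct
Tnfaip3: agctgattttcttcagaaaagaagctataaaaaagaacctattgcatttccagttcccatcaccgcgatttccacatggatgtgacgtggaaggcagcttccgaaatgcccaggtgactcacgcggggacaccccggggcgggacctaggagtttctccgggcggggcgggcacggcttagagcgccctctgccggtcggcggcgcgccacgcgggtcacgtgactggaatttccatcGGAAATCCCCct
In the Nfkb2 window the palindrome GGGAATTCCC began 39 bases before the start and matched on both strands, and the overlapping matches GGGGCTTTCC and GGGCTTTCCC began 11 and 10 bases before it. Rel held the overlapping matches GGGAAATCCC and GGAAATCCCC, Nfkbia held GGAAATTCCC and Tnfaip3 held GGAAATCCCC. RefSeq gave 10 windows for 7 of the 10 genes, and 5 windows of these 4 genes held a match; the fifth is a further start of Nfkb2, with GGGACTTTCC. The windows of Rela, Nfkbib and Nfkbie held none. Of all 32851 windows in the table, 1350 held the pattern, or 4.11%. A match is a description of letters and not a measured binding site.

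The deposited values are intensities on a linear scale, which the authors had scaled so that the trimmed mean was nearly equal on all arrays (99.98). Median intensities lay between 32.5 and 37.6, and precision is limited by how few arrays there are. Btk, the gene deleted in the knockout, measured 874.1 and 749.8 in CBA, 841 and 643.9 in Xid, and 276.1 and 173.6 in Btk KO on its brighter probe set. Where those probes lie relative to the deleted part is not known here. In RNA quality the run 1 array of Btk KO differed from the rest, with a 3' to 5' ratio of 10.4 for the Gapdh controls, against at most 1.61 on the other 5 arrays, and it was hybridised on a day of its own. The B cell marker Cd79a measured 3066.3 to 6004.4 on the 6 arrays.

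Levels of marker genes differed between the arrays of the groups. In Btk KO against CBA limma called 3 of 15 macrophage and 2 of 8 neutrophil markers, all higher, beside 0.174% of all probe sets. With the run as a block it called 11 of 15 macrophage, 4 of 8 neutrophil, 4 of 9 NK and 2 of 7 T cell markers, beside 2.23% of all. In Xid it called 0 markers without the block and 6, all of macrophages, with it, beside 0.0671% and 0.483% of all. The B cell, erythroid and handling stress lists had 0 members called in any comparison in either fit. At an unadjusted p under 0.05 in Btk KO against CBA without the block they had 4 of 13, 8 of 10 and 1 of 21, beside 8.83% of all probe sets. The summed intensity of 13 B cell markers was 28300 and 28100 in CBA, 28300 and 21800 in Xid, and 20700 and 19600 in Btk KO, with a median log2 difference of -0.16 in Xid and -0.52 in Btk KO against CBA. The sum of 15 macrophage markers was 3510 and 5120 in CBA, 7180 and 11000 in Xid, and 11800 and 15200 in Btk KO (medians 1.11 and 1.72). Mrc1, the mannose receptor of macrophages, measured 37.4 and 38.4 in CBA, 99.3 and 145.6 in Xid, and 287.2 and 246.5 in Btk KO. Medians of the other lists in Xid and in Btk KO were 0.17 and 1.47 for 8 neutrophil markers, 0.45 and 1.36 for 9 NK markers, 0.36 and 0.50 for 7 T cell markers, and 0.25 and 1.43 for 10 erythroid markers. Of their defining members, S100a8 measured 50.0 to 65.4 in CBA and Xid and 267.1 and 629.3 in Btk KO, and Hba-a1 3777.1 to 13054.9. Cd3e measured 9.7 and 56.2 in CBA, 38.5 and 11.5 in Xid, and 17.0 and 62.6 in Btk KO. Its lower value in each pair lay under about 19.8, the mean intensity that a probe set needed to be tested. In Xid 21 genes listed as handling stress genes, such as Fos and Jun, had a median of 0.43, at 0.94 in run 1 and -0.06 in run 2. Their sum was 18500 on the Xid array of run 1, against 10000 to 13600 on the other 5. The list shares 2 genes with the list of NF-kB target genes described below, and whether handling changed these values was not tested. The part of these shifts in the results for NF-kB genes was not tested. In such bulk samples fewer cells of a type and less RNA per cell cannot be told apart.

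**Figure D1:**
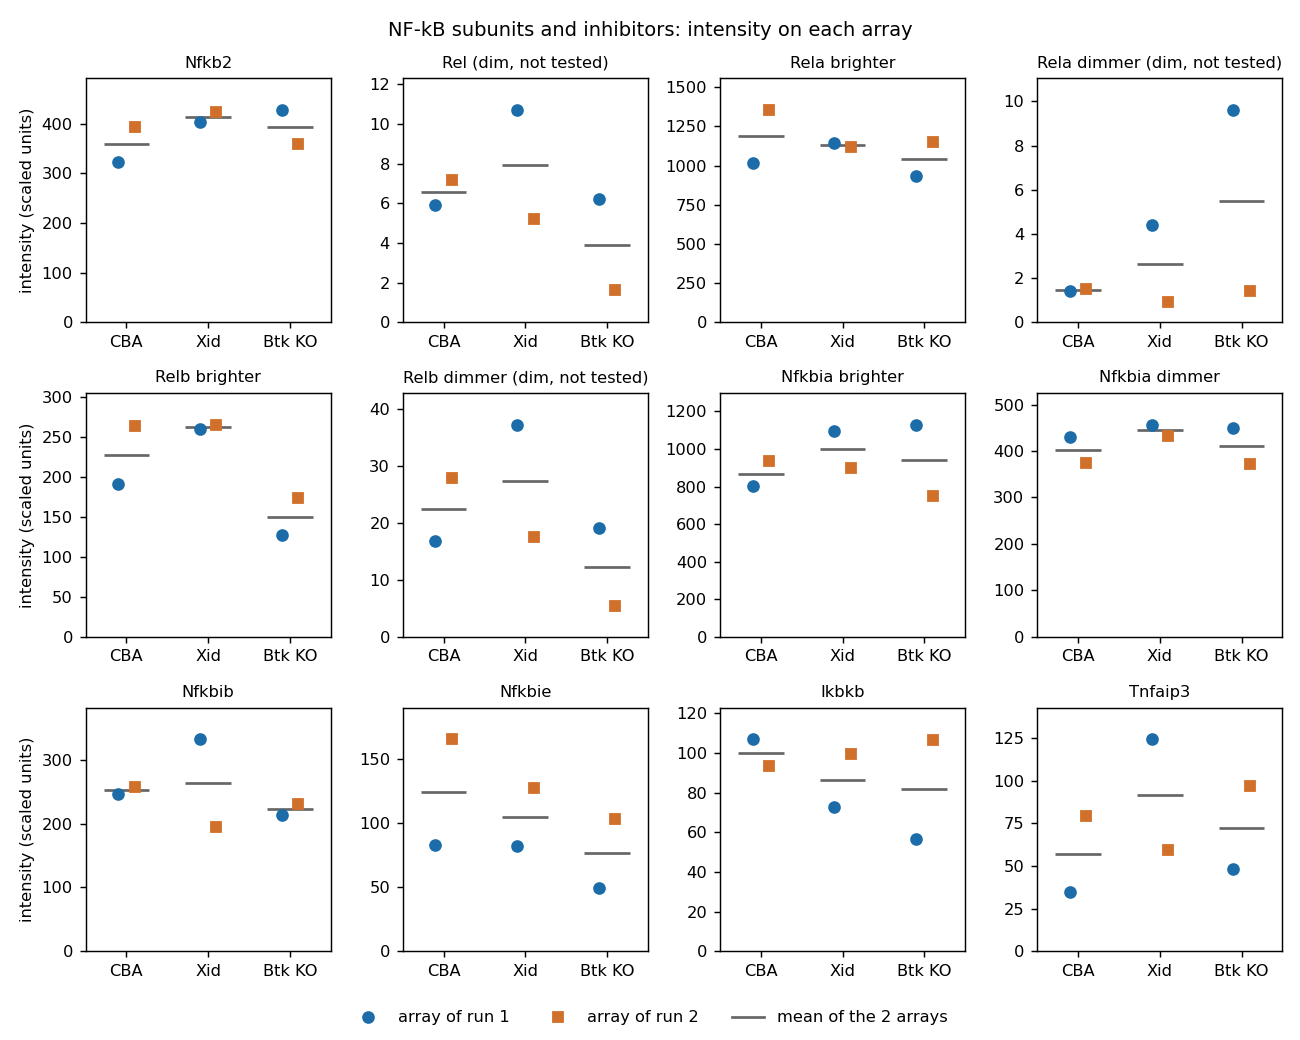
Intensity (scaled units, linear axis from 0) of the 12 probe sets on each array, by group, with circles for run 1, squares for run 2 and a bar at the mean of both arrays. Relb is lower on both Btk KO arrays than on the other 4, Nfkbie is higher in run 2 in all 3 groups, and the 3 dim probe sets do not exceed 37.2.

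Among the Rel family subunits, Rela and Nfkb2 were bright and nearly level across the groups, Relb was lower in Btk KO without passing the test, and Rel could not be assessed. Rela encodes the main activating subunit RelA. Its brighter probe set measured 1019.5 and 1353.5 in CBA, 1147.1 and 1115.4 in Xid, and 933.2 and 1152.2 in Btk KO. The 3 groups overlapped, and the log2 difference was -0.05 ± 0.22 (SE) in Xid and -0.18 ± 0.22 in Btk KO against CBA. The 95% interval for Btk KO ran from -0.70 to 0.35, a fold of 0.613 to 1.27. All log2 differences are on the scale of log2(intensity + 6) and come from a limma model of the 3 group means. A second Rela probe set read at most 9.6, below the filter on dim probe sets, and gives no level.

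Nfkb2 encodes p100, the precursor of p52 and subunit of the alternative pathway. It measured 323.6 and 394.5 in CBA, 404.6 and 424.2 in Xid, and 427.6 and 360.3 in Btk KO. Both Xid arrays lay above both CBA arrays, while the Btk KO arrays overlapped with CBA. The difference was 0.21 ± 0.20 in Xid, with an interval of -0.26 to 0.68, and 0.13 ± 0.20 in Btk KO. With an SD of 0.15 (log2) over the 6 arrays it varied less than the median tested probe set, at 0.28.

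Relb encodes RelB, the partner of p52. Its brighter probe set measured 191.5 and 263.2 in CBA, 259.7 and 265.1 in Xid, and 127.1 and 173.4 in Btk KO. Both Btk KO arrays lay below each of the 4 CBA and Xid arrays. The level in Btk KO was 0.670 of CBA, a log2 difference of -0.58 ± 0.24 (interval -1.15 to -0.01, limma adjusted p = 0.556). Against Xid it was 0.576, a difference of -0.80 ± 0.24 (interval -1.36 to -0.23, limma adjusted p = 0.998). Within the runs the difference from CBA was -0.569 and -0.585, and that from Xid was -0.997 and -0.596. It did not pass with the run as a block either, where limma adjusted p = 0.183 and 0.321. Without the Btk KO array of run 1 and without the block, the differences from CBA and from Xid were -0.36 and -0.58. With the block and without that array, the difference from CBA was -0.48. The B cell markers had a median of -0.52 in the same comparison with CBA, and the part of that shift in the Relb value was not tested. A second, dimmer Relb probe set measured 16.8 and 27.9 in CBA, 37.2 and 17.5 in Xid, and 19.0 and 5.4 in Btk KO. It fell just under the filter and its groups overlapped.

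Rel encodes c-Rel, the subunit that B cells need to proliferate after antigen receptor signals. Its only probe set measured 5.9 and 7.2 in CBA, 10.7 and 5.2 in Xid, and 6.2 and 1.6 in Btk KO. All 6 values lie below the mean intensity of about 19.8 that a probe set needed to be tested. They therefore bear on the probe set and give no level of c-Rel messenger RNA in any group.

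The IkB inhibitors showed no group difference that passed the test, and the values of Nfkbie were higher in run 2 in all 3 groups. Nfkbia encodes IkB alpha, the inhibitor that is rapidly degraded and made anew on activation. Its brighter probe set measured 802.9 and 934.3 in CBA, 1096.6 and 900.5 in Xid, and 1128.7 and 748.7 in Btk KO. The dimmer probe set measured 430.6 and 375.2, 456.4 and 432.0, and 449.3 and 372.3 in the same order. On the brighter probe set both Btk KO values lay outside the range of the CBA pair, 1 above and 1 below. On the dimmer one both Xid arrays lay above both CBA arrays by a small margin. Both probe sets gave positive differences from CBA, of 0.20 ± 0.25 and 0.14 ± 0.20 in Xid and 0.09 ± 0.25 and 0.02 ± 0.20 in Btk KO. The interval of the dimmer probe set in Btk KO reached from -0.43 to 0.48, a fold of 0.741 to 1.40. That of the brighter probe set was wider, from -0.51 to 0.68, a fold of 0.704 to 1.60. Larger changes in either direction lie outside the interval of the respective probe set.

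Nfkbib encodes IkB beta, an inhibitor that is degraded more slowly. It measured 247.2 and 257.3 in CBA, 332.0 and 195.4 in Xid, and 214.3 and 231.1 in Btk KO. The Xid pair spanned all other values, and both Btk KO arrays lay below both CBA arrays. The difference in Btk KO was -0.18 ± 0.27 (interval -0.80 to 0.45).

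Nfkbie encodes IkB epsilon, an inhibitor that in mice restrains c-Rel and RelA dimers in B cells. It measured 83.1 and 165.7 in CBA, 82.2 and 127.7 in Xid, and 49.2 and 103.8 in Btk KO. In all 3 groups the array of run 2 was higher, by 1.99, 1.55 and 2.11 times. The difference between Btk KO and CBA was -0.67 ± 0.44 (interval -1.70 to 0.36, limma adjusted p = 0.746). Within the runs it was -0.69 and -0.65, and without the Btk KO array of run 1 it was -0.17, or -0.56 with the run as a block. With the run as a block the standard error was 0.21 and limma adjusted p = 0.173, which did not pass. The shift from run 1 to run 2 itself was 0.85 ± 0.17 (limma adjusted p = 0.0621), and it was examined after the values were seen. Of the 9 tested probe sets, 2 were higher in run 2 in all 3 groups, Nfkbie and Relb, and 1 was lower in all 3, the dimmer Nfkbia. Over all probe sets tested 20.8% were higher and 23.9% lower in this way, and limma called 1.65% for the run.

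Of the kinase and the feedback inhibitor, Ikbkb was lowest on the array with the 3' to 5' ratio of 10.4. The brighter Rela and Relb probe sets and Nfkbie were lowest there too, while Nfkb2 and the brighter Nfkbia were highest there. Tnfaip3 was the most variable over the 6 arrays of the 9 tested probe sets. Ikbkb encodes IKK beta, the kinase subunit that marks IkB proteins in the classical pathway. It measured 106.8 and 93.3 in CBA, 72.8 and 99.7 in Xid, and 56.5 and 106.7 in Btk KO. The Btk KO pair held the lowest value and nearly the highest. Its difference from CBA was -0.33 ± 0.33, at -0.85 in run 1 and 0.18 in run 2, and without the Btk KO array of run 1 it was 0.09.

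Tnfaip3 encodes A20, a ubiquitin-editing enzyme induced by NF-kB that shuts its signals down. It measured 34.9 and 79.3 in CBA, 124.2 and 59.6 in Xid, and 48.0 and 97.0 in Btk KO. The highest value was 3.56 times the lowest, and the groups overlapped. The highest, in Xid, came from the array with the highest sum of handling stress genes. The difference between Xid and CBA was 0.65 ± 0.50 (interval -0.52 to 1.81), at 1.67 in run 1 and -0.38 in run 2. In Btk KO it was 0.34 ± 0.50, at 0.40 and 0.27.

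**Figure D2:**
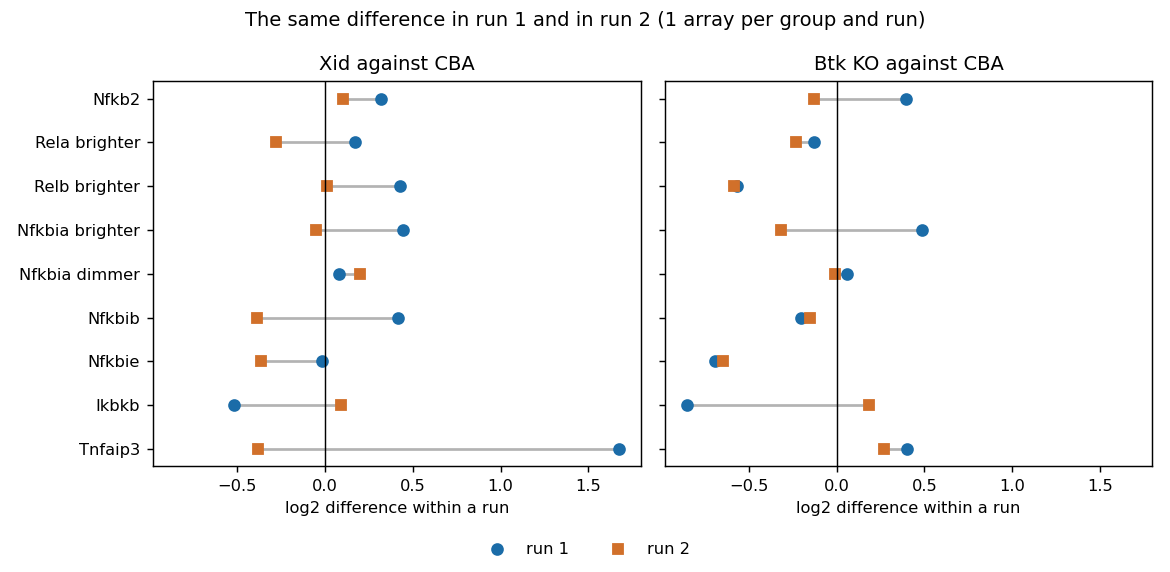
Log2 difference of the 9 tested probe sets from CBA within run 1 (circles) and within run 2 (squares), for Xid on the left and Btk KO on the right, each from 1 array per group. Relb and Nfkbie lie between -0.69 and -0.57 in both runs of Btk KO, while Tnfaip3 in Xid lies at 1.67 in run 1 and at -0.38 in run 2.

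Over all members, no probe set was called in any comparison. With limma, 0 of 9 tested probe sets passed in Xid against CBA, in Btk KO against CBA, in Btk KO against Xid, or with both mutant lines together against CBA. Over all 7453 probe sets 0.0671%, 0.174%, 0.0403% and 0.148% passed in these comparisons. At an unadjusted p under 0.05 there were 0, 1, 1 and 0 members, against 4.43%, 8.83%, 3.61% and 7.37% of all probe sets. With the run as a block limma again called 0 members in each comparison, against 0.483%, 2.23%, 0.188% and 1.93% of all, and 0, 2, 2 and 1 had an unadjusted p under 0.05, against 8.1%, 15.1%, 7.31% and 12.7%. The lowest adjusted p of a member was 0.556 without the block and 0.173 with it, both in Btk KO against CBA.

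The median member differed by 0.14 in Xid and by -0.18 in Btk KO from CBA, beside 0.01 for all probe sets in both comparisons. The median in Xid changed sign between the runs, at 0.317 in run 1 and -0.053 in run 2, while that in Btk KO was -0.127 and -0.151. Members ranged from -0.21 to 0.65 in Xid and from -0.67 to 0.34 in Btk KO. All 9 had a negative difference between Btk KO and Xid, from -0.80 to -0.08, with a median of -0.12 beside 0.00 for all probe sets. That count held in neither run alone, where 7 of 9 were negative in run 1 and 5 of 9 in run 2. In run 1 Nfkb2 and the brighter Nfkbia were positive, at 0.079 and 0.041. Without the Btk KO array of run 1, 5 of 9 were negative, or 6 with the run as a block. Over the alternatives run, every tested probe set but Relb turned positive at least once. The comparisons share arrays, so their values are not independent of each other. The arrays of both groups did not overlap for 2 members in Xid against CBA, Nfkb2 and the dimmer Nfkbia, both higher, where 31.4% of all probe sets did not overlap in either direction. In Btk KO against CBA these were Relb and Nfkbib, both lower, beside 36% of all. Relb was the only such member in Btk KO against Xid, beside 26.5%, and there were 0 with both mutant lines against CBA, beside 17.1%. These shares of the members do not exceed those of all probe sets. The median interval of a member reached 0.59 (log2) to either side of its difference from CBA, or 1.51-fold, so smaller differences could not be told from 0 in most members. These intervals are before adjustment over all probe sets, so larger differences need not pass either. Relb at -0.80 in Btk KO against Xid had limma adjusted p = 0.998.

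**Figure D3:**
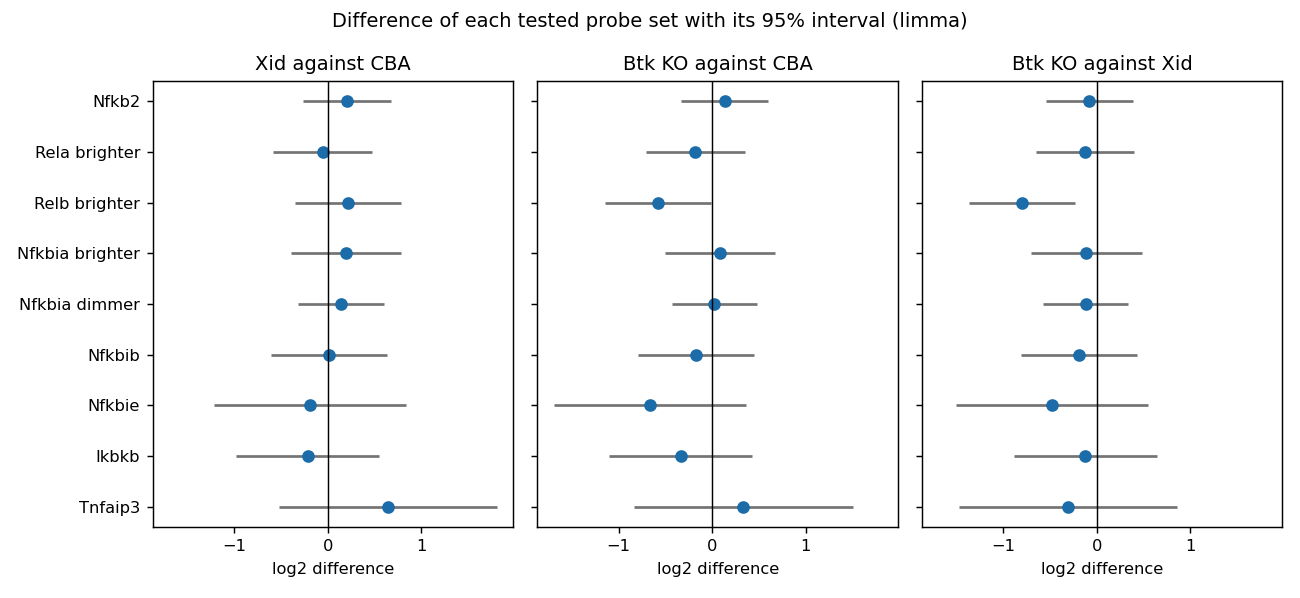
Log2 difference (points) of the 9 tested probe sets with the 95% interval of the limma model (lines) in the 3 pairwise comparisons. The intervals of Relb exclude 0 in both comparisons with Btk KO before adjustment, at -1.15 to -0.01 and at -1.36 to -0.23, and the other intervals include 0.

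Other genes of the pathway, from the receptors to the adaptors and kinases, gave a like picture. Of 37 such genes 24 were tested, and limma called 0 of them in each of the 4 comparisons, with the block and without it. At an unadjusted p under 0.05 without the block there were 1, 3, 0 and 1 in Xid against CBA, Btk KO against CBA, Btk KO against Xid and both lines against CBA, and with the block 1, 3, 0 and 2. Over all probe sets the shares were 4.43%, 8.83%, 3.61% and 7.37% without the block and 8.1%, 15.1%, 7.31% and 12.7% with it. Their median difference was 0.05 in Xid and 0.05 in Btk KO. In both mutant lines against CBA, 3 of 24 genes lay lower and 3 higher without overlap, beside 17.1% of all probe sets in either direction. The 5 with the smallest p with both mutant lines against CBA were Bcl3, Tnfrsf1b, Tnfrsf1a, Ltbr and Nfkbiz. Any separation of these from CBA follows in part from that choice. Bcl3, a nuclear IkB family protein that works with p50 and p52 dimers, measured 220.3 and 249.6 in CBA, 106.8 and 165.9 in Xid, and 165.8 and 120.5 in Btk KO. All 4 arrays of the mutant lines lay below both CBA arrays, as for 7.31% of all probe sets. The difference was -0.75 ± 0.24 (limma adjusted p = 0.448, and 0.191 with the block). With the block and 1 array left out in turn, limma called it in 1 of 6 settings, without the run 1 array of Btk KO with its Gapdh ratio of 10.4 (adjusted p = 0.0327), and adjusted p reached 0.559 in the others. Without the block it was called in 0 of 6. These settings were chosen after the values were seen. Tnfrsf1b and Tnfrsf1a, the receptors of tumour necrosis factor, differed by 0.41 and 0.71, although a dimmer Tnfrsf1a probe set differed by 0.12. In Btk KO alone against CBA the brighter Tnfrsf1a probe set differed by 1.13 and the dimmer one by -0.27. With both lines Ltbr, the lymphotoxin beta receptor, differed by 0.44, and Nfkbiz, a further nuclear IkB protein, by 0.45. In the same comparison limma called 3 of 15 macrophage markers higher, beside 0.148% of all probe sets, and 10 with the block, beside 1.93%. All 15 had positive differences, with a median of 1.32. The part of macrophages in the receptor values was not tested.

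Among genes listed as NF-kB targets, Bcl2 and Cxcr5 had lower values in both mutant lines, and they passed the test in Btk KO and with both lines together only with the run as a block, calls that most settings with 1 array left out lost. Of 31 genes listed 19 were tested, with a median of -0.12 in Xid and -0.13 in Btk KO. Without the block limma called 0 in each comparison, and 4 in Xid against CBA, 6 in Btk KO against CBA, 2 in Btk KO against Xid and 5 with both lines had an unadjusted p under 0.05, beside 4.43%, 8.83%, 3.61% and 7.37% of all probe sets. With it limma called 2, both lower, in Btk KO against CBA and with both mutant lines against CBA, beside 2.23% and 1.93% of all, and 0 in the other comparisons. With both lines against CBA, 4 of 19 targets lay lower and 2 higher without overlap, beside 17.1% of all probe sets in either direction. Targets named below were chosen for a small p with both lines, so their separation follows in part from that choice. Bcl2, the survival protein, measured 434.8 and 399.0 in CBA, 253.2 and 169.9 in Xid, and 195.5 and 164.6 in Btk KO on its brightest probe set. Every array of the mutant lines lay below both CBA arrays, as for 7.31% of all probe sets. The difference with both lines was -1.09 ± 0.21, with limma adjusted p = 0.129 without the block and 0.0196 with it. The other Bcl2 probe sets differed by -0.94 and -0.74, with limma adjusted p = 0.0388 and 0.232 with the block.

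Cxcr5, the chemokine receptor that brings B cells into follicles, measured 419.4 and 399.2 in CBA, 227.2 and 285.7 in Xid, and 204.8 and 228.7 in Btk KO. Both mutant pairs lay below both CBA arrays, as for 7.31% of all probe sets. The difference with both lines was -0.79 ± 0.17, with limma adjusted p = 0.200 without the block and 0.0464 with it. With the block and 1 array left out in turn, the difference with both lines ran from -1.23 to -0.95 for Bcl2 and from -0.94 to -0.63 for Cxcr5. The calls of both genes then held when a Btk KO array of either run was left out (2 of 6 settings), and were lost without any of the CBA or Xid arrays, where limma adjusted p reached 0.185 and 0.445. In Btk KO against CBA the call of Bcl2 held in 2 of 6 such settings, without the run 2 array of Xid or of Btk KO, and limma adjusted p reached 0.13. That of Cxcr5 held in 1 of 6, without the run 2 array of Btk KO, and limma adjusted p reached 0.318. The B cell markers had a median of -0.52 in Btk KO against CBA and -0.37 with both lines. Their part in the Bcl2 and Cxcr5 values was not tested.

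Ccnd2, a D cyclin that drives B cells into the cycle, measured 56.1 and 94.9 in CBA, 38.2 and 27.6 in Xid, and 28.2 and 43.9 in Btk KO. Both mutant pairs lay below both CBA arrays here too, as for 7.31% of all probe sets. The difference with both lines was -0.99 ± 0.31 (limma adjusted p = 0.438, and 0.181 with the block). Cd83, an activation marker, differed by -0.58 on the brighter and by -0.83 on the dimmer probe set. Ccl3, a chemokine that macrophages also make, measured 16.5 and 43.9 in CBA and 50.2 to 90.7 in the mutant lines, a difference of 1.21 ± 0.37 (limma adjusted p = 0.417). Neither Cd83 nor Ccl3 passed in either fit.

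**Figure D4:**
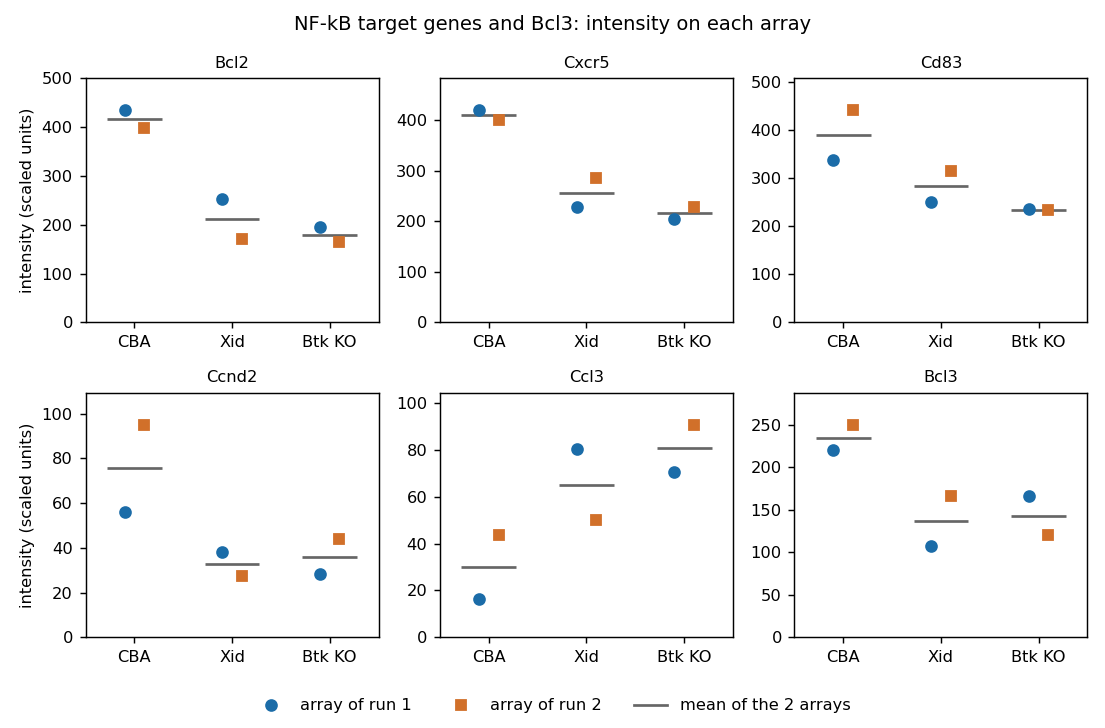
Intensity (scaled units, linear axis from 0) on each array of 5 NF-kB target genes and Bcl3, each by its brightest probe set, with circles for run 1, squares for run 2 and a bar at the mean. Bcl2, Cxcr5, Cd83, Ccnd2 and Bcl3 are higher on both CBA arrays than on the 4 arrays of the mutant lines, as are 7.31% of all tested probe sets. Ccl3 is lower on both CBA arrays. The genes shown were named for a small p with both lines against CBA, so such separation follows in part from that choice.

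**Figure D5:**
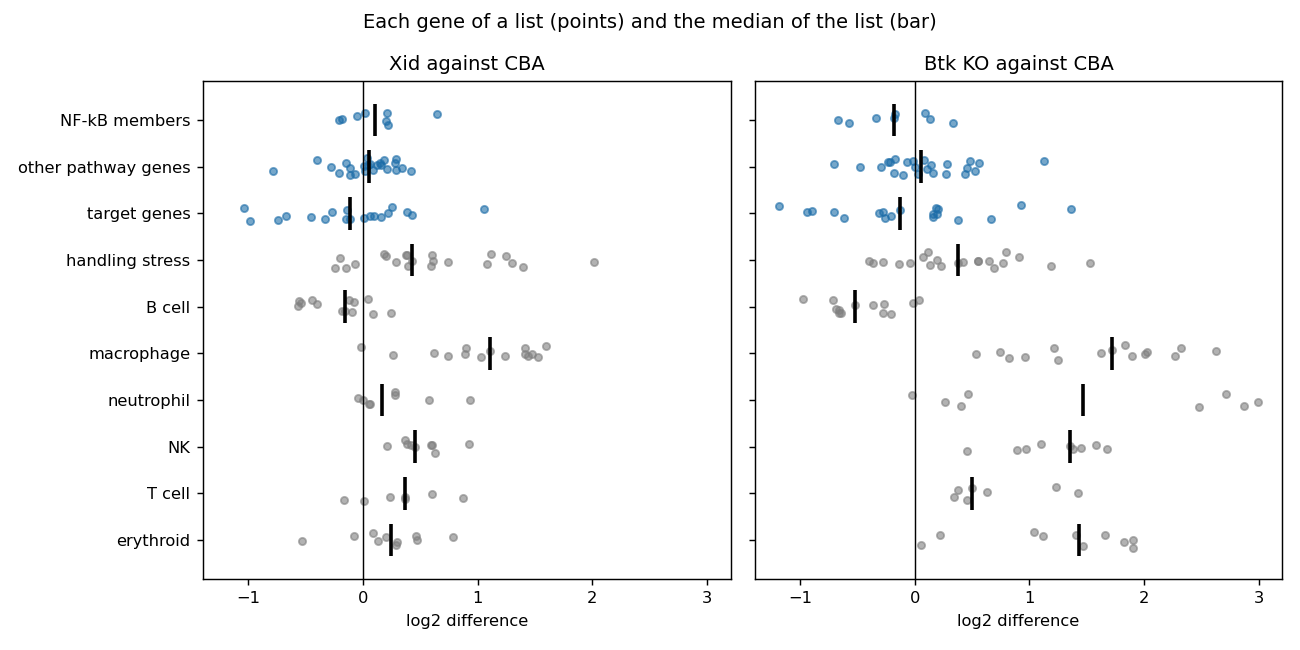
Log2 difference from CBA of each tested gene (points, 1 probe set per gene) and the median of its list (bars), for Xid on the left and Btk KO on the right; NF-kB lists are blue and the lists of stress genes and cell type markers grey. The 3 NF-kB lists lie around 0, with medians from -0.18 to 0.11, while the macrophage median is 1.11 in Xid and 1.72 in Btk KO.

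The genes most alike in pattern were named for the 4 members with the smallest p with both mutant lines against CBA, Tnfaip3, Nfkbie, Nfkb2 and Ikbkb. Likeness is the root mean square difference of log2 values, each centred on its own mean, over the 6 arrays among 6662 named probe sets of other genes. The nearest to Tnfaip3 were Gstm3 at 0.21, Dusp1, a phosphatase of the immediate early response, at 0.22, and Creb1 at 0.26, where the median probe set stood at 0.63. Dusp1 measured 422.0 and 684.9 in CBA, 1020.2 and 655.2 in Xid, and 654.4 and 955.4 in Btk KO. As with Tnfaip3, the highest value came from the Xid array of run 1. Nearest to Nfkbie were Bad and Mrps34 at 0.12 and Rfk at 0.13, and Mrps34, a mitochondrial ribosomal protein gene, was likewise higher in run 2 in all 3 groups, with 104.9 and 191.9 in CBA. Nearest to Nfkb2 was Tbc1d1 at 0.05, followed by BC147527 and Epb41l4b at 0.06. Nearest to Ikbkb were Nucks1 at 0.07, Triap1 at 0.08 and Akt1s1 at 0.09, each lowest on the Btk KO array of run 1, at 25.5, 45.8 and 31.5. The neighbours were picked by likeness over these same 6 arrays, so highs, lows and run shifts shared with a member follow from that choice. The order describes these 6 arrays alone.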

How the data were processed

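Each array and probe set has 1 intensity on a linear scale, which the authors deposited already scaled and without detection calls. The software that summarised the probes is not given in the sources used here. Chip lots, with 1 lot per run, and the 3 hybridisation days were read per the file headers. Of 12422 probe sets, 10833 had 1 symbol, and 10817 of these were found by gene number in a gene table of GRCm38.p6, used for names only.

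Intensities were taken to log2 after adding 6, the 20th percentile of all values being 5.9. Probe sets with a mean log2 value below the 40th percentile were left out as dim, which kept 7453. The 4 comparisons were tested two-sided in 1 limma model of the 3 group means (version 3.58.1 in R 4.3.3; lmFit, then eBayes with a trend on intensity), with Benjamini-Hochberg adjustment over all 7453 at 0.05. The code was tested on simulated data. Levels of named genes other than members are those of the brightest probe set unless stated.

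The members, the lists, the promoter pattern and the rule for naming genes (all members, and of 2 lists the 5 genes with the smallest p with both lines against CBA plus any called) were chosen with earlier results of these data known. The replicate numbers mark a run: the design label gives 3 chips followed by 3 with new RNA, and deviations from the group mean correlated between groups within a run at 0.31, 0.37 and 0.44 across probe sets. The run as a block, other scalings, pseudocounts of 1 and 20, other filters, no trend, fewer groups and each array left out were the alternatives. Figures were drawn with matplotlib 3.10.9.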

Additional observations from a re-analysis of the deposited data

How the results depend on the processing

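No member was called in any of the 4 comparisons under the alternatives that were run (limma, 0 of 9 in each), 16 for each pairwise comparison and 15 with both lines, where only the groups compared would repeat the model. At an unadjusted p under 0.05 at most 0, 3, 2 and 1 members appeared in Xid against CBA, Btk KO against CBA, Btk KO against Xid and both lines against CBA. Over all probe sets the calls ran from 0 to 76, 0 to 166, 0 to 29 and 0 to 165 in these comparisons, against 5, 13, 3 and 11. The replicate block gave 36, 166, 14 and 144 calls over all probe sets and 0 members, and it changed no call of a member. Of the 36 differences of members, 10 kept their sign under all alternatives, among them Relb in Btk KO against CBA (-0.80 to -0.35) and against Xid (-1.01 to -0.58) and Nfkbie in Btk KO against CBA (-1.16 to -0.17). The others changed sign at least once, and 4 of these had exceeded their standard error. Ikbkb in Btk KO against CBA ran from -0.760 to 0.091 with 1 array left out, the latter without the Btk KO array of run 1, and was 0.031 with the replicate block and without that array. Nfkbie in Btk KO against Xid ran from -0.976 to 0.016 (without the same array), and with both lines against CBA from -0.901 to 0.045 (without CBA of run 2). Tnfaip3 with both lines against CBA ran from -0.039 (without CBA of run 1) to 1.021. Fewer arrays entered those fits. Median centring moved the median of all probe sets in Btk KO against CBA from 0.01 to -0.10. The block with each array left out, for Bcl2, Cxcr5 and Bcl3, was added after seeing the data. With 2 arrays a group and dim probe sets left out, Rel and the dimmer Rela and Relb probe sets were not tested.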

Other observations

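Among further tested NF-kB target genes, 3 named after their values were seen had their highest value on a run 1 array of a mutant line. Bcl2l1, which encodes the survival protein Bcl-xL, measured 80.5 and 94.8 in CBA, 93.7 and 93.9 in Xid, and 233.7 and 124.9 in Btk KO. Its higher value came from the Btk KO array with the Gapdh ratio of 10.4. Myc, the transcription factor of growth, measured 103.4 and 104.2 in CBA, 173.0 and 115.8 in Xid, and 238.9 and 117.9 in Btk KO, where the values of run 2 lay between 104.2 and 117.9. Irf4, a transcription factor that B cells induce after antigen receptor signals, measured 541.4 and 611.7 in CBA, 1035.3 and 395.3 in Xid, and 616.6 and 403.2 in Btk KO. Its highest value came from the Xid array of run 1, as for Tnfaip3. None of these 3 genes was called in any of the 4 comparisons (0, with limma, with and without the run block). At an unadjusted p under 0.05 Bcl2l1 appeared in 2 comparisons in either fit, Myc in 0 without the block and 2 with it, and Irf4 in 0.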
